A study of Arabidopsis thaliana with 22 samples.

Results

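Expansins and xyloglucan endotransglucosylase/hydrolases (XTHs) were followed in Arabidopsis thaliana roots after transfer to agar with or without sulfate. The members were chosen by name: every probe set whose platform annotation lists exactly 1 gene with a symbol beginning EXPA, EXPB, EXLA, EXLB or XTH. This gave 27 of the 22810 probe sets, each for a different gene. They comprised 10 α-expansins (EXPA), 4 β-expansins (EXPB), 3 expansin-like A genes (EXLA), 1 expansin-like B gene (EXLB) and 9 XTH genes. RefSeq's gene table (assembly TAIR10.1) holds 64 symbols of these 5 families, and the 27 are among them. A filter on low signals, applied to the whole array, kept 17 of the 27 for testing, namely 6 of 10 EXPA, 2 of 4 EXPB, 1 of 3 EXLA, the single EXLB and 7 of 9 XTH probe sets. XTH20, EXPA7 and EXPA18, the genes given to mark the group, were all kept.

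Total RNA of Col-0 roots, from plants 10 days old, was hybridised to 22 arrays in 11 groups of 2, an A and a B array by the labels. One group received no treatment and is the 0 h group, with 1500 uM sulfate in its title. The other 10 groups were moved to MGRL agar medium with 0 or 1500 uM sulfate (called sulfate-free and replete below) and taken 2, 4, 8, 12 and 24 h later. Separate cultures are not stated for the A and B arrays, so the p-values rest on a spread that may be technical. No untransferred roots were taken at the later times, so the act of transfer and the passage of time cannot be told apart. Median signals lay between 42.5 and 46.2 over the arrays, and the 2 arrays of a group correlated across probe sets with r between 0.977 and 0.987. Values are the authors' MAS5 signals on a linear intensity scale, which differ between probe sets for reasons other than transcript amount and are therefore set against each other only within a gene.

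Growing plant cells are held in a wall of cellulose microfibrils tethered and spaced by xyloglucan and pectin. Expansins loosen this wall without hydrolysing it, the α-expansins being the family classically tied to acid-induced growth, while β-expansins are best known from grass pollen. Expansin-like proteins share the domain structure of expansins, but a wall-loosening activity has not been shown for them. XTHs cut a xyloglucan chain and rejoin the cut end to another chain, and some members mainly hydrolyse. In roots both families are used in the elongation zone and in outgrowing root hairs, where different members serve different cell types.

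Against untreated roots, XTH20, a close relative of XTH18 and XTH19 that is expressed in roots, rose at all 5 times. XTH32 rose at 2 h and 12 h, and the expansin-like gene EXLA1 rose at 4 h. In the mean of both media, 2 of the 17 tested members passed an adjusted p of 0.05 at 2 h, where 5.77% of all 13648 tested probe sets did. At 4, 8, 12 and 24 h the counts were 2, 1, 2 and 1, beside 4.17%, 7.2%, 12.6% and 0.476% of all probe sets. All of these calls were rises, where 3.76%, 2.92%, 3.52%, 5.77% and 0.33% of all probe sets rose in time order, in limma with the Benjamini-Hochberg adjustment over the whole array. No member was called lower at any of the 5 times in that fit. Over all probe sets, the shares called lower were 2.01%, 1.25%, 3.69%, 6.87% and 0.147% in time order. The 5 comparisons share the same 2 untreated arrays and are not independent of each other. The median log2 difference of the 17 members ran from -0.07 at 2 h to 0.19 at 24 h, beside -0.03 and 0.02 over all tested probe sets.

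The letters A and B marked arrays that deviated together across groups, and a fit with the letter as a factor called more members. It called 5 of 17 at 2 h (3 higher, 2 lower), where it called 10.6% of all tested probe sets, and 5 at 4 h (3 higher, 2 lower, all 8.09%). At 8 h it called 2 (all 14.9%), at 12 h 3 (2 higher, 1 lower, all 23.9%) and at 24 h 2 (all 2.51%). With time and letter together as a random block the counts were 2, 2, 1, 2 and 1 in time order, where 4.78%, 3.52%, 5.92%, 10.6% and 0.418% of all probe sets were called.

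**Figure D1:**
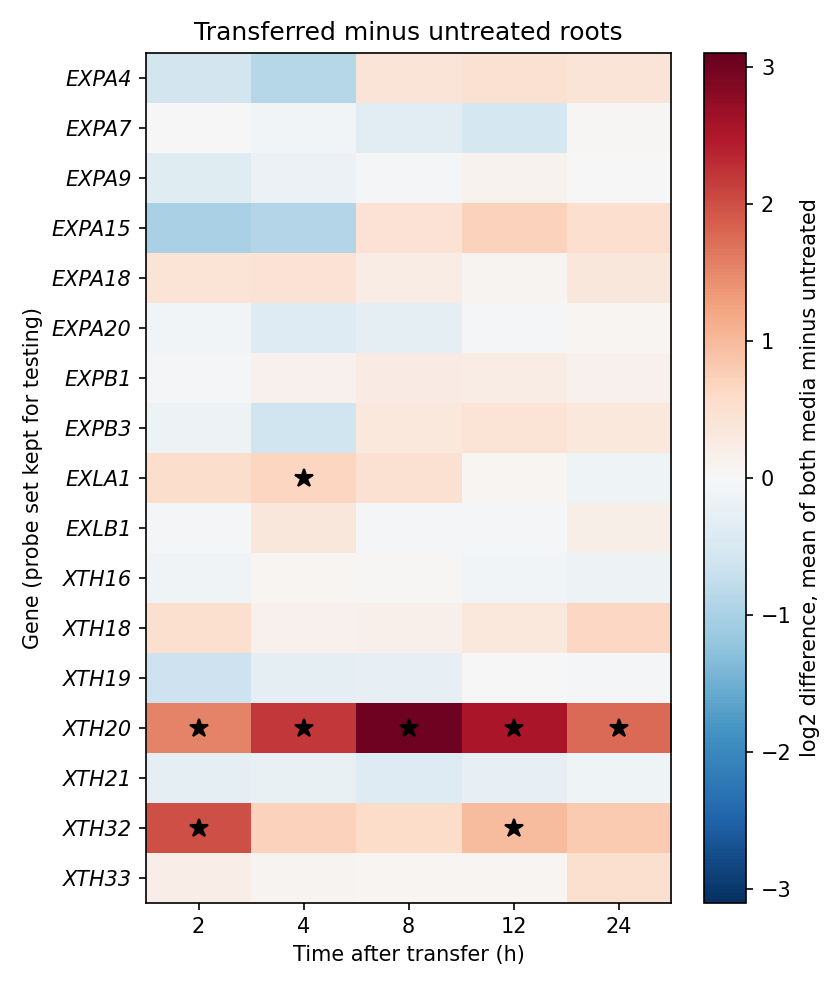
Log2(signal + 11) difference between transferred roots (mean of both media, 4 arrays) and untreated roots (2 arrays) for the 17 tested members at each time in hours. Colour gives the difference, and a star marks an adjusted p under 0.05 in limma. XTH20 carries a star at all 5 times, XTH32 at 2 h and 12 h and EXLA1 at 4 h.

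XTH20 differed most from untreated roots of the tested members at 4, 8, 12 and 24 h. It is a close relative of XTH17, XTH18 and XTH19, and how far their RNA hybridises to the XTH20 probes was not tested. Together with XTH19 this gene is known for its part in pith cell proliferation in cut stems. On arrays A and B of untreated roots, XTH20 gave signals of 48.1 and 63.5. Without sulfate, XTH20 gave 133 and 247 at 2 h, 163 and 388 at 4 h, 516 and 400.3 at 8 h, 383 and 313 at 12 h and 241 and 186 at 24 h. With 1500 uM sulfate, XTH20 gave 164 and 200.5 at 2 h, 215 and 512 at 4 h, 663 and 556 at 8 h, 361 and 449 at 12 h and 268 and 174 at 24 h. All 20 transferred arrays lay above both untreated arrays, and the signals were highest at 8 h in both media. The mean over the 4 arrays at 8 h was 534 ± 108 (SD, n = 4) against 55.8 ± 10.9 (SD, n = 2) in untreated roots. On the log2(signal + 11) scale, which understates changes of dim probe sets, XTH20 rose by 1.54 (SE 0.33, adjusted p = 0.00869) at 2 h. It stood 2.18 above untreated roots at 4 h (adjusted p = 8.37e-04) and 3.01 above them at 8 h (8.08-fold, adjusted p = 2.26e-05). The difference was 2.53 at 12 h (adjusted p = 9.54e-05) and 1.76 at 24 h (3.39-fold, adjusted p = 0.0190).

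Taken medium by medium, XTH20 was called higher than in untreated roots at all 5 times without sulfate, with differences of 1.54, 1.99, 2.81, 2.43 and 1.75 in time order. In replete medium the differences were 1.53, 2.37, 3.22, 2.64 and 1.77, and the last missed the threshold (adjusted p = 0.167, 0.0250 with the letter as a factor). Of all probe sets, 3.03%, 2.1%, 2.38%, 3.81% and 0.374% were higher without sulfate and 2.45%, 1.77%, 2.37%, 2.56% and 0.0366% in replete medium, in the same order of times. Both media share the untreated arrays here. The XTH20 level also changed among the 5 times after transfer, in an F-test that uses no untreated array (adjusted p = 0.00415). The call at 2 h rested on untreated array A (adjusted p = 0.158 without it). At 24 h it was lost without untreated array A (0.316), untreated array B (0.115), sulfate-free array A (0.0750) or replete array A (0.0871). With only the untreated and 4 h arrays in the fit, the adjusted p at 4 h was 0.0636.

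**Figure D2:**
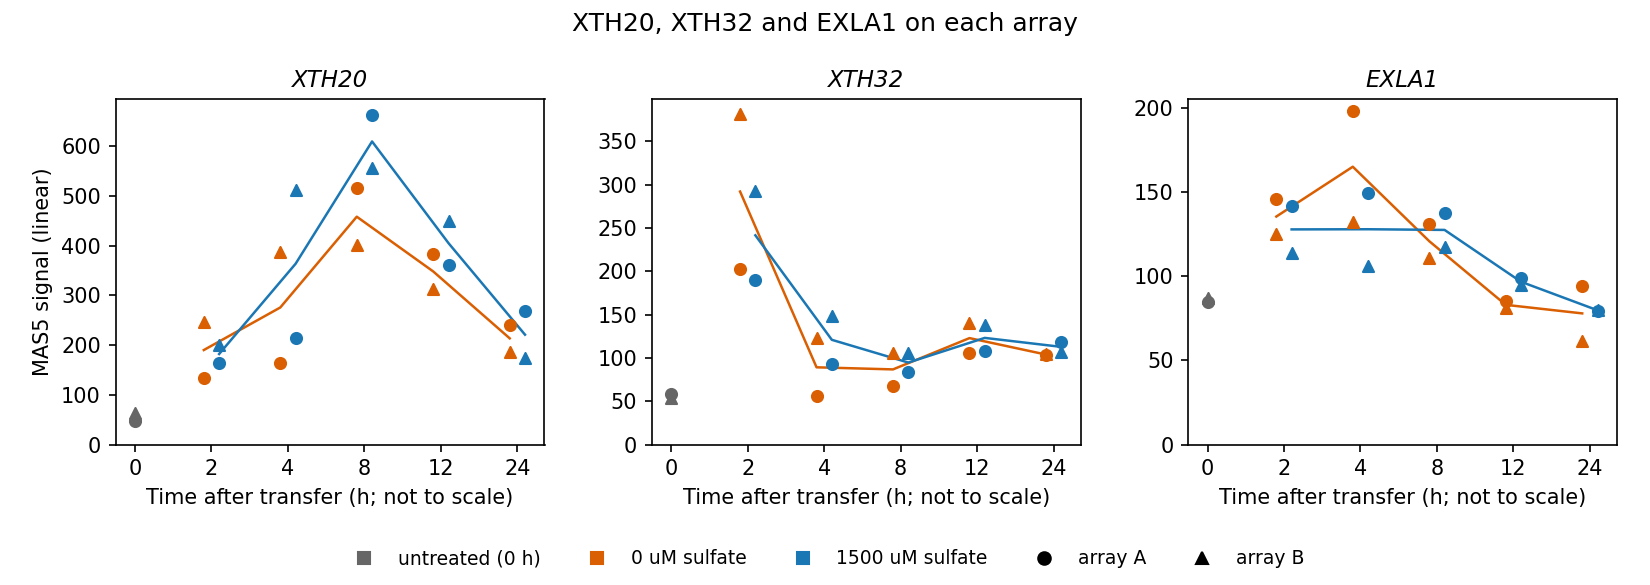
MAS5 signal (linear scale) of XTH20, XTH32 and EXLA1 on each of the 22 arrays, by hours after transfer with times evenly spaced. Circles are A arrays, triangles are B arrays, colour gives the medium and lines join the means of 2 arrays. XTH20 is highest at 8 h, XTH32 at 2 h, and EXLA1 is above both untreated arrays from 2 h to 8 h.

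XTH32 moved earlier. It belongs, with XTH31, to the XTH subgroup predicted to hydrolyse xyloglucan. XTH32 signals on arrays A and B were 59.0 and 53.9 in untreated roots. XTH32 signals in sulfate-free roots were 202 and 382 at 2 h, 55.7 and 123 at 4 h, 67.5 and 106 at 8 h, 106 and 140.2 at 12 h and 104 and 104 at 24 h. XTH32 signals in replete roots were 190.5 and 293 at 2 h, 93.2 and 149 at 4 h, 83.5 and 106 at 8 h, 109 and 138 at 12 h and 118 and 107 at 24 h. At 2 h all 4 transferred arrays lay above both untreated arrays, as they did at 8, 12 and 24 h, whereas at 4 h sulfate-free array A lay between the untreated arrays. XTH32 rose by 1.99 on the log2 scale at 2 h (SE 0.28, 3.97-fold, adjusted p = 2.52e-04) and by 0.98 at 12 h (SE 0.28, adjusted p = 0.0313). The log2 differences at 4, 8 and 24 h were 0.71 (adjusted p = 0.215), 0.57 (0.253) and 0.82 (0.274). With the letter as a factor, the differences at 4 h (adjusted p = 0.0258) and 24 h (0.0287) also passed. Between 2 h and 24 h XTH32 fell by 1.17 (log2, adjusted p = 0.00299), and the F-test over time gave an adjusted p of 0.00155. The 12 h call was lost without untreated array A (adjusted p = 0.177), untreated array B (0.136), sulfate-free array B at 12 h (0.0870) or replete array B at 12 h (0.0897), and with no filter on low signals (0.0582).

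XTH18 and XTH19 are neighbouring genes (AT4G30280 and AT4G30290) and their probes are open to the same untested hybridisation between relatives. XTH19 signals in untreated roots were 177 and 187, and at 2 h the 4 transferred arrays ranged from 93.2 to 148, below both. By 12 h they ranged from 158 to 209.5. The 2 h difference of -0.64 missed the threshold (adjusted p = 0.0995) and passed it with the letter as a factor (0.00193). From 2 h to 24 h XTH19 rose by 0.58 (adjusted p = 0.0381, 0.0660 with time and letter as a block). XTH18 showed no call, with signals of 98.2 to 128 in untreated roots and 129.5 to 266 at 24 h, and a 24 h difference of 0.65 (adjusted p = 0.370). Over the 11 group means XTH18 and XTH19 correlated with r of -0.18.

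The other 3 tested XTH probe sets passed no test against untreated roots or over time. XTH21, which is needed for normal primary root growth, ranged over all arrays from 41.9 to 87.0. Its transferred arrays lay below both untreated arrays at 2, 4, 8 and 24 h, with log2 differences from -0.41 to -0.13 and no adjusted p under 0.221. XTH33, a member predicted to be anchored in the plasma membrane, ranged from 14.4 to 48.6 and lay above both untreated arrays at 2 h and 24 h (24 h difference 0.50, adjusted p = 0.300). XTH16 ranged from 91.3 to 149.5, with differences from untreated roots between -0.17 and 0.06.

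Over the whole table, all 4 transferred arrays lay above both untreated arrays for 12.4%, 10.6%, 16%, 21.6% and 11.7% of probe sets at 2, 4, 8, 12 and 24 h. The members above were 4, 2, 5, 5 and 7 of 17. Below both untreated arrays lay 16.5%, 11.7%, 16.7%, 20.1% and 11.6% of probe sets, and 5, 3, 3, 1 and 1 of the 17 members. At 2 h the members below were EXPA4, EXPA9, EXPA15, XTH19 and XTH21, and at 24 h the members above were EXPA4, EXPA15, EXPB3, XTH18, XTH20, XTH32 and XTH33.

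Among the times after transfer, 8 of the 17 members changed by the F-test, where 20.3% of all tested probe sets did. They were XTH20, XTH32 and EXLA1, already described as higher than in untreated roots, and EXPA4, EXPA9, EXPA15, EXPA20 and EXPB3. The F-test takes no direction. From 2 h to 24 h, 4 members rose (EXPA4, EXPA9, EXPA15 and XTH19) and 2 fell (XTH32 and EXLA1), where 6.17% of all probe sets rose and 5.85% fell. With the letter as a factor the F-test called 11 members (all 36.2%), adding XTH19 (adjusted p = 5.82e-04), EXPA7 (0.0101) and EXLB1 (0.0214). With time and letter together as a block it called 6 (all 11.7%), leaving out EXPA9 (0.148) and EXPA20 (0.121).

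EXPA15 and EXPA4, both α-expansins, were lower at 2 and 4 h than from 8 h on. At 4 h the EXPA15 signals far below untreated roots were those of the A arrays. On arrays A and B of untreated roots, EXPA15 gave signals of 796 and 679.9. Without sulfate, EXPA15 gave 233 and 470.0 at 2 h, 193 and 633 at 4 h, 949 and 961 at 8 h, 1181 and 978 at 12 h and 1171 and 906 at 24 h. With 1500 uM sulfate, EXPA15 gave 292 and 521 at 2 h, 249.5 and 726 at 4 h, 1004 and 1149.8 at 8 h, 1415 and 1321 at 12 h and 1119 and 1090.2 at 24 h. Every EXPA15 signal from 8 h on lay above every signal at 2 and 4 h, a separation not counted over all probe sets. The signals from 8 h on also lay above both untreated arrays. Those of 2 h lay below both untreated arrays, while at 4 h replete array B lay between them. Against untreated roots the log2 differences were -1.01 at 2 h (SE 0.40, adjusted p = 0.185) and -0.91 at 4 h (0.294), neither past the threshold. The later differences of 0.46 at 8 h (adjusted p = 0.549), 0.71 at 12 h (0.261) and 0.53 at 24 h (0.657) did not pass it either. From 2 h to 24 h EXPA15 rose by 1.54 (2.91-fold, SE 0.33, adjusted p = 0.00519), and the F-test gave 0.00106.

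EXPA4 signals on arrays A and B were 654 and 626 in untreated roots. EXPA4 signals in sulfate-free roots were 327 and 448 at 2 h, 180.3 and 491 at 4 h, 719.5 and 770.2 at 8 h, 825 and 749 at 12 h and 787 and 794 at 24 h. EXPA4 signals in replete roots were 416 and 563 at 2 h, 262 and 565 at 4 h, 956 and 971 at 8 h, 994 and 1062 at 12 h and 963 and 882 at 24 h. As for EXPA15, every EXPA4 signal from 8 h on exceeded every signal at 2 and 4 h, again not counted over all probe sets. At both early times all 4 transferred arrays lay below the untreated arrays, and from 8 h on all lay above them. The EXPA4 difference from untreated roots was -0.56 at 2 h (adjusted p = 0.347) and -0.89 at 4 h (0.114, and 0.0285 with the letter as a factor). Its later differences of 0.40 at 8 h (adjusted p = 0.461), 0.48 at 12 h (0.294) and 0.41 at 24 h (0.629) missed the threshold. From 2 h to 24 h EXPA4 rose by 0.97 (SE 0.24, adjusted p = 0.0137), with an F-test adjusted p of 6.17e-04.

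**Figure D3:**
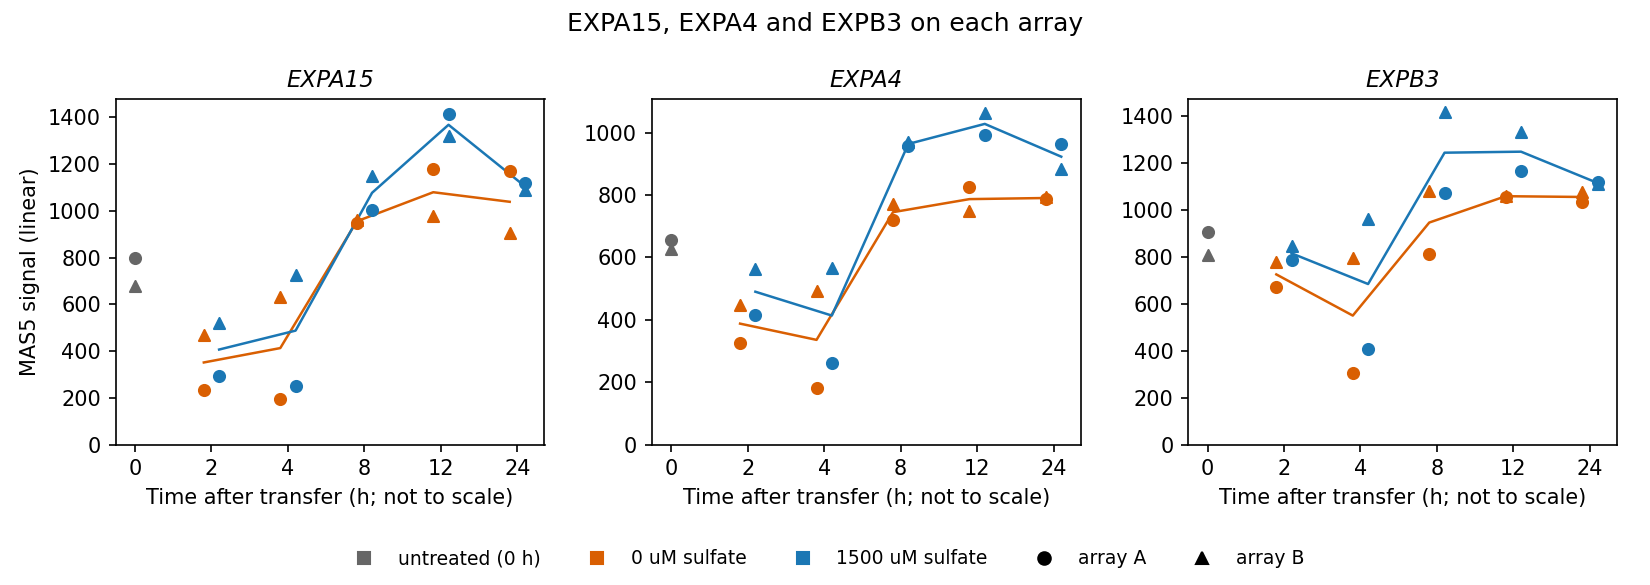
MAS5 signal (linear scale) of EXPA15, EXPA4 and EXPB3 on each of the 22 arrays, by hours after transfer with times evenly spaced. Circles are A arrays, triangles are B arrays, colour gives the medium and lines join the means of 2 arrays. EXPA15 and EXPA4 are below untreated roots at 2 h and above them from 8 h on, and at 4 h the A arrays of all 3 genes lie far below the B arrays. No difference of these 3 genes from untreated roots passed the adjusted threshold in the fit without letters.

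EXPB3, a β-expansin, had its lowest group means at 4 h. On arrays A and B of untreated roots, EXPB3 gave signals of 904 and 809. Without sulfate, EXPB3 gave 672 and 776 at 2 h, 304 and 793 at 4 h, 809 and 1081 at 8 h, 1055 and 1058 at 12 h and 1033 and 1074 at 24 h. With 1500 uM sulfate, EXPB3 gave 784 and 843 at 2 h, 405 and 961 at 4 h, 1071 and 1413 at 8 h, 1163 and 1329.9 at 12 h and 1118 and 1108 at 24 h. At 12 and 24 h all 4 transferred arrays were above both untreated arrays. At 4 h both A arrays were below the untreated arrays and replete array B was above them. The F-test over time gave an adjusted p of 0.0192, which was 0.0553 without replete array A of 4 h. The difference from untreated roots was -0.61 at 4 h (adjusted p = 0.368) and 0.42 at 12 h (0.382). The second tested β-expansin, EXPB1, had no call: its signals ranged from 141 to 209.7 over all arrays, and its differences from untreated roots lay between -0.07 and 0.26.

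EXPA9 and EXPA20, also α-expansins, changed with time by smaller amounts. EXPA9 signals on arrays A and B were 308 and 351 in untreated roots. EXPA9 signals in sulfate-free roots were 246 and 265 at 2 h, 257 and 317 at 4 h, 366 and 289 at 8 h, 349 and 375 at 12 h and 328 and 331 at 24 h. EXPA9 signals in replete roots were 244 and 245 at 2 h, 260.2 and 332 at 4 h, 277 and 336 at 8 h, 337 and 355 at 12 h and 291 and 391 at 24 h. All 4 EXPA9 signals at 2 h were below the untreated arrays, and those at 12 h were all above untreated array A. From 2 h to 24 h EXPA9 rose by 0.40 (SE 0.12, adjusted p = 0.0311, 0.111 with time and letter as a block), with an F-test adjusted p of 0.0343. That F-test was lost without any 1 of the 4 arrays of 2 h, the 4 of 12 h or the 2 sulfate-free arrays of 24 h (10 of 22 arrays), with adjusted p-values up to 0.107. The 2 h difference from untreated roots, -0.38, had an adjusted p of 0.145, and 0.0478 with the letter as a factor.

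On arrays A and B of untreated roots, EXPA20 gave signals of 40.1 and 45.7. Without sulfate, EXPA20 gave 41.4 and 46.2 at 2 h, 26.3 and 34.7 at 4 h, 31.6 and 31.0 at 8 h, 38.9 and 54.5 at 12 h and 43.6 and 55.4 at 24 h. With 1500 uM sulfate, EXPA20 gave 33.9 and 37.8 at 2 h, 25.3 and 34.1 at 4 h, 34.3 and 34.2 at 8 h, 32.3 and 39.98 at 12 h and 37.4 and 45.2 at 24 h. At 4 h and 8 h all transferred arrays lay below both untreated arrays, and at 12 and 24 h they lay on both sides. The F-test for EXPA20 stood close to the threshold (adjusted p = 0.0453) and was lost when any of 18 of the 22 arrays was left out, the exceptions being sulfate-free array B of 4 h, sulfate-free array A of 12 h, sulfate-free array A of 24 h and replete array B of 4 h. Its adjusted p then reached up to 0.118, without sulfate-free array A of 4 h. The 4 h difference from untreated roots was -0.40 (adjusted p = 0.173, 0.0367 with the letter as a factor).

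EXPA7 and EXPA18 are expressed in root hair cells, where both are used as markers of hair outgrowth. EXPA7 signals on arrays A and B were 169 and 133 in untreated roots. EXPA7 signals in sulfate-free roots were 185 and 112 at 2 h, 130.1 and 148 at 4 h, 114 and 109 at 8 h, 95.4 and 92.7 at 12 h and 175 and 127 at 24 h. EXPA7 signals in replete roots were 179 and 144 at 2 h, 179 and 110.5 at 4 h, 107 and 135 at 8 h, 123 and 92.6 at 12 h and 155 and 163 at 24 h. EXPA7 was lowest at 12 h, where all 4 transferred arrays lay below both untreated arrays. That difference of -0.53 (SE 0.20) had an adjusted p of 0.0929, and 0.0279 with the letter as a factor. The F-test over time gave 0.0567 for EXPA7, and 0.0101 with that factor. In bulk roots, fewer cells of a type and less RNA per cell cannot be told apart.

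On arrays A and B of untreated roots, EXPA18 gave signals of 147 and 90.7. Without sulfate, EXPA18 gave 204 and 111 at 2 h, 156 and 164 at 4 h, 140.1 and 132 at 8 h, 124 and 95.9 at 12 h and 182 and 121 at 24 h. With 1500 uM sulfate, EXPA18 gave 212 and 130.2 at 2 h, 217 and 127 at 4 h, 132 and 149.9 at 8 h, 155 and 126 at 12 h and 184 and 124 at 24 h. The EXPA18 signals after transfer overlapped the untreated ones at every time, and the untreated arrays themselves lay far apart. No comparison called EXPA18, with differences from untreated roots of 0.08 at 12 h to 0.46 at 4 h and an F-test adjusted p of 0.595. The summed signal of EXPA7 and EXPA18, the 2 of 11 root hair genes listed that the annotation named, was 224 to 317 in untreated roots, 238 to 395 at 4 h, 189 to 278 at 12 h and 248 to 357 at 24 h.

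Of the expansin-like genes, EXLA1 was high from 2 h to 8 h. EXLA1 signals on arrays A and B were 84.8 and 87.2 in untreated roots. EXLA1 signals in sulfate-free roots were 146 and 125 at 2 h, 198 and 132 at 4 h, 131 and 110.5 at 8 h, 84.9 and 81.0 at 12 h and 94.4 and 61.4 at 24 h. EXLA1 signals in replete roots were 142 and 114 at 2 h, 149 and 106 at 4 h, 138 and 117 at 8 h, 98.7 and 94.6 at 12 h and 79.4 and 80.1 at 24 h. All transferred arrays at 2, 4 and 8 h were above both untreated arrays, and at 12 and 24 h they lay on both sides of them. EXLA1 rose by 0.67 at 4 h (SE 0.17, 1.59-fold, adjusted p = 0.0374). The differences of 0.55 at 2 h (adjusted p = 0.0816) and 0.47 at 8 h (0.1201) passed only with the letter as a factor (0.00788 and 0.0177). EXLA1 fell by 0.67 from 2 h to 24 h (adjusted p = 0.00484), and its F-test over time gave 0.00191.

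The 4 h call of EXLA1 was lost without untreated array A (adjusted p = 0.315) or B (0.165), without sulfate-free (0.1203) or replete (0.103) array A of 4 h, with no filter (0.0655) and with only the untreated and 4 h arrays in the fit (0.226). Leaving out sulfate-free array A of 12 h or any replete array of 12 or 24 h gave adjusted p-values from 0.05003 to 0.0512. EXLB1, the single expansin-like B gene of the table, ranged from 55.9 to 157 and was called in no comparison of the fit without letters, with differences from untreated roots between -0.07 and 0.35.

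The remaining 10 members were left out by the filter, and their values bound what can be said of them. EXPA21, EXPA24, XTH26 and XTH29 were below the 25th percentile of signals on all 22 arrays, with mean signals of 1.80, 1.91, 1.94 and 5.81. EXPA16 was below it on 14 arrays. EXPA8, EXPB2, EXPB5, EXLA2 and EXLA3 had mean signals from 18.8 to 27.6. In a fit of all 22746 probe sets with no filter, 2 of the 10 were called between 2 h and 24 h and 1 by the F-test over time, where 7.14% and 11.7% of all probe sets were. EXPB2 changed with time after transfer (adjusted p = 8.37e-04) and rose by 0.81 from 2 h to 24 h (2.31e-04). Its signals were 22.3 to 28.9 in untreated roots, 16.9 to 19.8 at 2 h and 35.4 to 44.7 at 24 h. The EXPB2 arrays of 2 h and 24 h did not overlap, which was not counted over all probe sets. EXPA8 rose by 0.75 from 2 h to 24 h in that fit (0.0437), with signals of 7.47 to 16.4 and 21.3 to 35.5. EXPA8 was below the 25th percentile on 2 arrays, and the F-test over time did not call it (adjusted p = 0.135). None of these 10 was called in any other comparison of that fit. For EXLA2 the 4 arrays of 2 h gave 20.7 to 48.1 against 13.3 to 16.7 in untreated roots (adjusted p = 0.153).

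As a description over the 11 group means, which share the untreated and paired arrays, the pattern of XTH20 was most like that of EXPB1 (Pearson's r = 0.72), then EXPA15 (0.33) and EXPA4 (0.29). EXPB1 itself had no call, and its differences from untreated roots lay between -0.07 and 0.26. The correlation takes no account of the size of a change. EXPA7 was most like EXPA18 (0.59), XTH33 (0.52) and XTH21 (0.36). For EXPA18 the order was EXPA7 (0.59), EXLA1 (0.55) and XTH33 (0.45).

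The sulfate-free and replete media gave no called difference for any member. The limma fit called 0 of 17 members at 2, 4, 8, 12 and 24 h, in the mean over the 5 times, and in the F-test for a difference that varies with time. Of all tested probe sets it called 0%, 0%, 0.00733%, 0.125% and 0.359% at the 5 times, 0.476% for the mean and 0.0806% in the F-test. At an unadjusted p under 0.05 the member counts were 0, 0, 1, 0 and 0 at the single times, 2 for the mean and 0 for the F-test, where 4.43% of all probe sets passed at 8 h and 6.24% for the mean.

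The mean difference, sulfate-free minus replete, was -0.25 for XTH33 (95% interval -0.45 to -0.06, adjusted p = 0.511). XTH33 signals at 8 h were 14.4 and 22.8 without sulfate and 36.1 and 29.8 in replete medium, a difference of -0.58 (unadjusted p = 0.0116, adjusted p = 0.999). For EXPA4 the mean difference was -0.33 (95% interval -0.65 to -0.01, adjusted p = 0.773). The mean difference between media for XTH20 was -0.20 (-0.57 to 0.16), for EXPA15 -0.22 (-0.66 to 0.22) and for XTH32 -0.09 (-0.40 to 0.21). An interval that spans 0 does not show that the media acted alike.

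The group mean without sulfate was below the replete one at all 5 times for 6 of the 17 members, EXPA4, EXPA7, EXPA15, EXPA18, EXPB3 and XTH33, and above it at all 5 times for no member. Of all tested probe sets, 4.59% were below at all 5 times and 6.16% above. The 6 members are not separate observations. Over the group means EXPA4 correlated with EXPA15 (r = 0.96) and EXPB3 (0.98), and EXPA15 with EXPB3 (0.90). The median over the 17 members of the mean difference was -0.0920, beside 0.00774 over all tested probe sets.

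**Figure D4:**
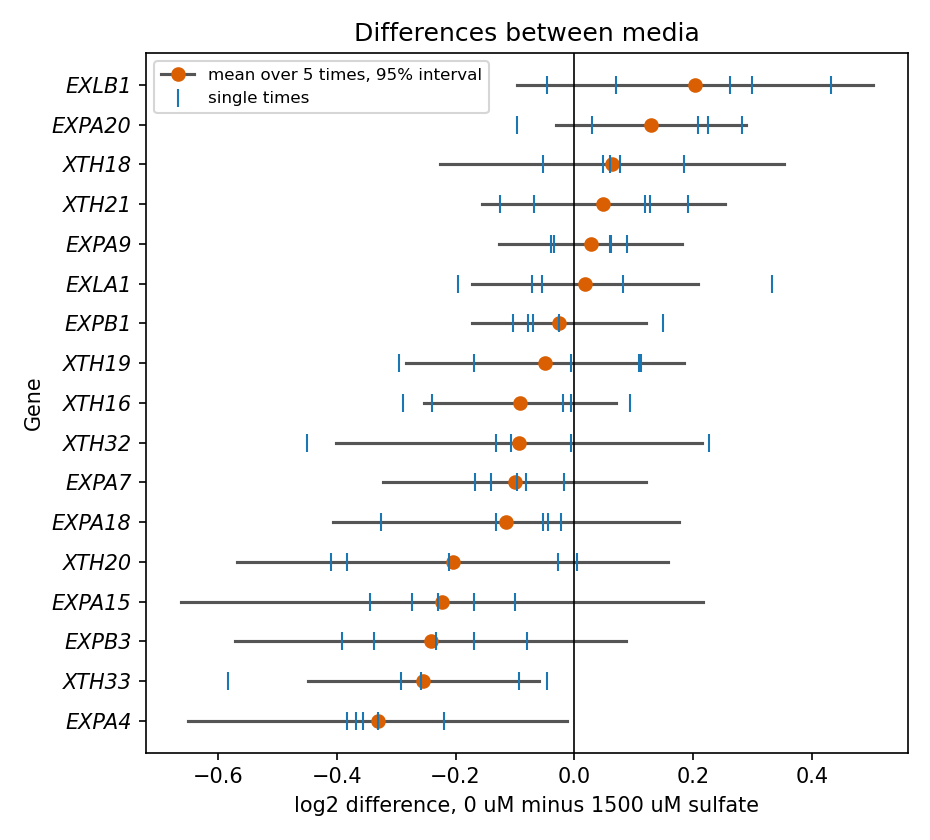
Log2(signal + 11) difference, 0 uM minus 1500 uM sulfate, for the 17 tested members. Points give the mean over 5 times with its 95% interval from limma, and ticks give the single times. The intervals of XTH33 and EXPA4 lie below 0, those of the other 15 members span 0, and no member passed the adjusted threshold.

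The A and B arrays of a group differed in ways shared between groups, and some members showed this strongly. At 4 h, array A was below array B by over 1 log2 unit in both media for EXPA4, EXPA15, EXPB3 and XTH20, which is 4 of 17 members against 0.176% of all tested probe sets. No member met that rule at 2, 8, 12 or 24 h, and none had array A above array B by that much in both media at any time. The A minus B differences at 4 h were -1.66 without sulfate and -1.50 in replete medium for EXPA15. For EXPA4 they were -1.39 and -1.08, for EXPB3 -1.35 and -1.23, and for XTH20 -1.19 and -1.21. The A array exceeded the B array in 11 of 11 groups for EXLB1, as it did for 3.41% of all probe sets. For XTH19 the A array was the lower in 11 of 11 groups, as for 3.79%. The labels do not say what the letters stand for.

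The 2 A arrays of 4 h were also left out, a choice made after these values were seen. It leaves a single array in each 4 h group and takes away the arrays on which EXPA4, EXPA15, EXPB3 and XTH20 were low. A smaller spread for those genes follows from the choice, so their F-tests in that fit are not given. XTH20 then stood 2.78 above untreated roots at 4 h. EXPA20 no longer passed the F-test (0.164), and EXLA1 no longer passed at 4 h (log2 difference 0.42, adjusted p = 0.201). Without the A arrays of both 2 h and 4 h the F-test called 5 members (all 13.1%), EXPA4, EXPA15, EXLA1, XTH20 and XTH32, with EXPB3 at 0.0799.

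**Figure D5:**
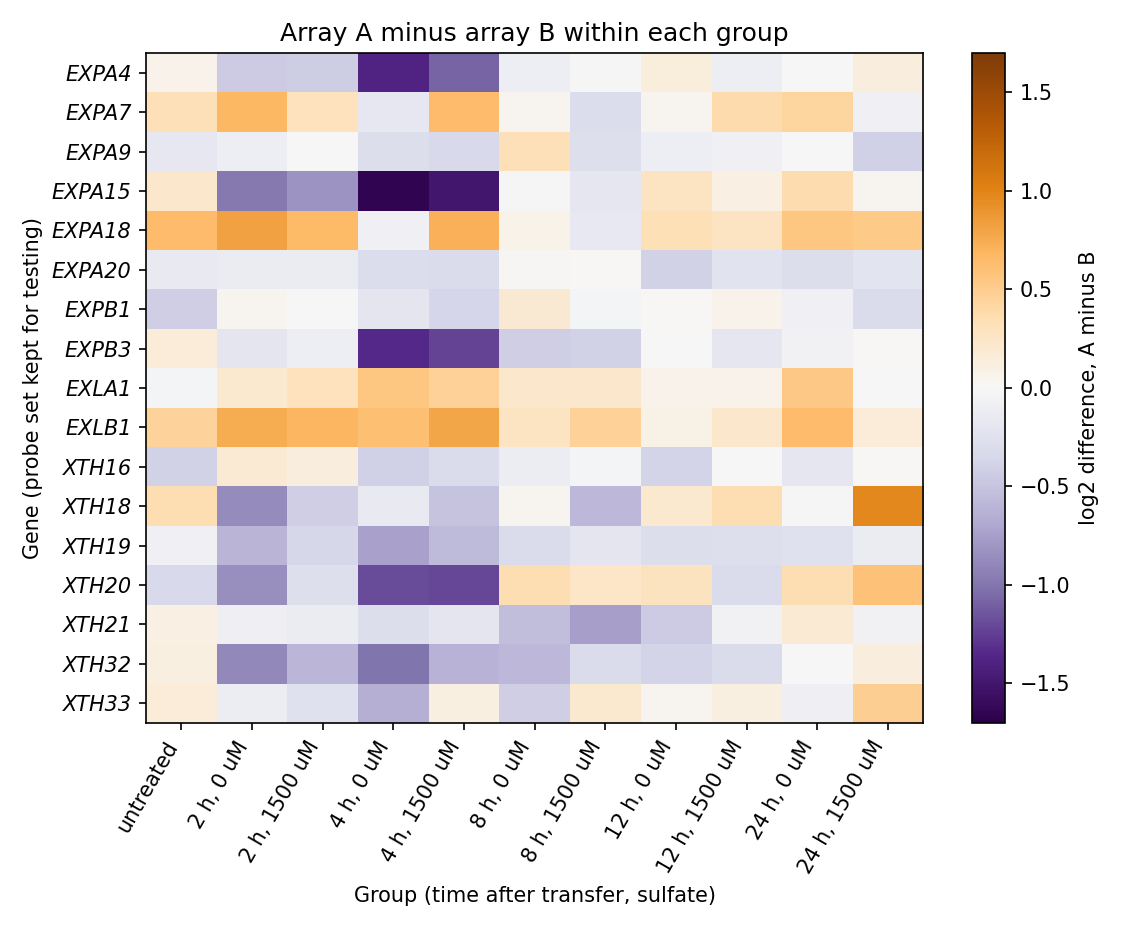
Log2(signal + 11) difference between array A and array B within each of the 11 groups, for the 17 tested members. Colour gives A minus B. At 4 h EXPA4, EXPA15, EXPB3 and XTH20 are over 1 log2 unit lower on array A in both media, EXLB1 is higher on A in all groups and XTH19 lower.

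Other genes of the wall and markers of other tissues were listed as context, but the annotation named few of them: 7 of 43, of which EXPA7 and EXPA18 are members. COB, which orients cellulose deposition in growing root cells, was the single named gene of 7 for cellulose synthesis, and no comparison called it. CSLC04, which encodes a xyloglucan backbone synthase, was the single named gene of 8 for xyloglucan synthesis and rose by 0.40 at 12 h (adjusted p = 0.0391). AUR1, an Aurora kinase of dividing cells and 1 of 3 listed for them, rose by 0.67 from 2 h to 24 h (adjusted p = 0.00417). No gene of the endodermis (2), xylem (5) or touch (3) lists was named, so those tissues were not checked.

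Of 4 listed genes of green tissue, RCA (Rubisco activase) and LHCB4.1 (a light-harvesting protein) were named. RCA fell by 0.80 at 4 h (adjusted p = 0.0468), 1.26 at 8 h (0.00158) and 1.47 at 12 h (3.12e-04), and LHCB4.1 fell by 1.17 at 12 h (0.00286). Their summed signal was 371 to 437 in untreated roots and then, in time order, 259 to 289, 223 to 331, 181 to 244, 124 to 164 and 271 to 354. Neither gene was listed at 0 on any array. The summed signal was lowest at 12 h, while XTH20 was highest at 8 h and EXPA7 lowest at 12 h. The part of green tissue in the members' differences from untreated roots was not tested.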

How the data were processed

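Gene expression was measured on 22 arrays of Arabidopsis roots. The authors deposited linear intensity signals for each probe set, and the submitters' processing notes name MAS5. For MAS5, neither version nor scaling target is given in the sources used here. Every array had a 2% trimmed mean of 100.01, and no further normalization was applied. Arrays carry no counting depth, and their number limits the precision.

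The table holds 22810 probe sets, and 64 controls of the array were not tested. For the other 22746, log2(signal + 11) was taken. The constant is 0.25 of the pooled median of 43.9, rounded. The filter on low signals kept the 13648 probe sets whose mean reached the 40th percentile (a signal of about 27.0). The tests used limma 3.58.1 under R 4.3.3, with lmFit and trended eBayes, in 1 fit of all 11 groups with 11 residual and 5.61 prior degrees of freedom. P-values were adjusted by Benjamini-Hochberg over the 13648, at a threshold of 0.05. The script was tested on simulated data.

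The platform annotation gave 1 gene for 13513 probe sets, several for 503 and none for 8730. Updating symbols with RefSeq's gene table (assembly TAIR10.1) left the 27 members the same. The sources state no genome build, and coordinates are left out. The members and the other gene lists were chosen with earlier results of these data known. Values on every array are given for XTH20, EXPA7, EXPA18 and the members called in the F-test over time, and other members are given by ranges. Members of the other lists are named where called, with COB named as the single measured gene of its list.

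The letters A and B occur in every group. Within a time, the A minus B differences in the sulfate-free and replete groups correlated over probe sets (r = 0.631, 0.607, 0.225, 0.316 and 0.429 from 2 h to 24 h). Among all 55 pairs of groups the correlation was 0.0275 to 0.644 and passed 0.1 in 54, so same-letter arrays were taken as paired, which the fit above ignores. Alternatives were a pseudocount of 44, no filter, quantile normalization, the letter as a factor, time and letter together as a random block (correlation 0.400), no intensity trend, only the groups compared, and each array left out. Leaving out the A arrays of 4 h, or of 2 and 4 h, was added after the data had been seen.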

Additional observations from a re-analysis of the deposited data

How the results depend on the processing

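No member call changed direction under any alternative tried, and the member counts of the media comparisons were 0 under every one. For the mean media difference over times, few of all probe sets were called either. Their share was 1.05% with the letter as a factor, 1.66% with time and letter as a block and 0.281% with no filter. A count of 0 therefore says little about the members. The fit with the letter as a factor called 5, 5, 2, 3 and 2 members against untreated roots at 2, 4, 8, 12 and 24 h. It called 10.6%, 8.09%, 14.9%, 23.9% and 2.51% of all probe sets at those times. The random block by time and letter called 2, 2, 1, 2 and 1 members, as the fit without letters did. Its shares of all probe sets were 4.78%, 3.52%, 5.92%, 10.6% and 0.418%. With no filter 1 member was called at 4 h and 1 at 12 h, beside 2.13% and 6.18% of all probe sets. With only the groups compared in the fit, 0, 3, 6 and 2 were called at 4, 8, 12 and 24 h, beside 1.03%, 7.22%, 17.2% and 0.454%. Without the A arrays of 2 h and 4 h, the F-test over time called 5, beside 13.1%. When each array was left out in turn, the counts ran from 1 to 3, 1 to 5, 1 to 2, 1 to 2 and 0 to 1 at 2, 4, 8, 12 and 24 h, and from 6 to 10 in the F-test. In those fits the share of all probe sets ran from 2.08% to 6.29%, 1.2% to 4.29%, 1.88% to 8.09%, 2.78% to 14.8%, 0.176% to 0.579%, and 15.7% to 24.6%. The 4 h count was 5 without sulfate-free array B of 4 h (all 4.01%) and 3 without replete array B of 4 h (3.91%). The cause of these changes was not tested. XTH20 kept its calls at 8 h and 12 h, and XTH32 its call at 2 h, under every alternative run. The pseudocount, quantile normalization and no intensity trend moved no member count by over 1.5 times. The 10 members with low signals were tested only with no filter.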

Other observations

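EXGT-A3, which RefSeq also lists as XTH27, belongs to the XTH family but was outside the rule by its symbol. Its signals ranged from 144 to 247, and it was lower than in untreated roots at 8 h (log2 difference -0.56, adjusted p = 0.0107) and 12 h (-0.56, adjusted p = 0.00787), in limma with no filter.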
